A study of Mus musculus with 4 samples.

Results

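The genes described here build the major histocompatibility complex (MHC) class I pathway, and 10 members were chosen by symbol from the 23337 genes of the count tables. They are the class I heavy chains H2-K1 and H2-D1, their light chain B2m, the peptide transporter genes Tap1 and Tap2, the peptide-loading gene Tapbp, the immunoproteasome genes Psmb8, Psmb9 and Psmb10, and Nlrc5, a regulator of the others. All 10 were found. The rule names them by symbol and uses no measured value, although they were listed with earlier results of these data known.

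RNA was sequenced from lymphatic endothelial cells of mouse embryos at day 14.5, in 4 libraries of wild type or homozygous mutant cells. The mutants carry a deletion, and the series title names an enhancer bound by GATA2. Cells positive for LYVE1 and VECAD and negative for CD45 were sorted from the dorsal anterior region, with the embryos of an entire litter of each genotype pooled. The wild type and mutant cells before culture were lysed after this sort. The wild type and mutant cells after culture had spent 7 days on OP9 feeder cells, a stromal line, with FLT3L, IL3 and SCF at 100 ng/ml each, and were sorted again for LYVE1 and VECAD, with no CD45 exclusion stated. Every group is 1 library of pooled embryos. By the protocols in the labels, one part of each sorted sample was lysed and the remainder was cultured. The libraries of a genotype before and after culture thus share an embryo pool. No comparison of 2 libraries has a replicate check, and their intervals are 95% intervals for counting error only. The strain is not given in the sources used here.

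Class I molecules show peptides from inside the cell to CD8+ T cells and are sensed by natural killer cells. The proteasome cuts the peptides, TAP carries them into the endoplasmic reticulum, and tapasin, the product of Tapbp, holds TAP beside empty heavy chains until a peptide binds. Interferons raise most of these genes, through STAT and IRF factors and through NLRC5, which acts at a shared promoter module with RFX, CREB/ATF and NF-Y factors.

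Counts over genes summed to 3987150 (wild type) and 7943587 (mutant) before culture, against 1694669 (wild type) and 3931557 (mutant) after it. Cdh5, which encodes VECAD, stood at 1003 to 2477 CPM (counts per 1e+06, scaled by the trimmed mean of M values, TMM) and Lyve1 at 890 to 3523 CPM. Prox1, which sets lymphatic fate, was at 507 and 487 CPM before culture and 207 and 137 CPM after. Pdpn, another lymphatic marker, had 0 counts in wild type and 8 in mutant cells after culture. Of the 7 lymphatic genes listed, 5 stood lower after culture and 2 higher in both genotypes. The higher 2 were Lyve1, by 3.29-fold in wild type and 3.08-fold in mutant cells, and Flt4, by 2.33-fold and 1.9-fold. Summed, the 7 genes stood at 7590 and 7177 CPM before culture and 7517 and 6324 CPM after. Counts over 1432 olfactory and vomeronasal receptor genes, which endothelium does not use, gave a background of 6.63 and 8.33 counts per kb of coding sequence before culture and 0.536 and 1.61 after, for wild type and mutant. Low members before culture are read against that background.

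The promoters of the heavy chains and B2m are shown because these 3 genes hold most of the class I counts and share a promoter module. RefSeq start sites on GRCm38.p6 gave a window of 250 bases before and 50 after the start for 8 of the 10 members, with none for Tap2 and Nlrc5. A stretch that ends at the base before the start is printed for H2-K1 (chr17:34000348-34000522, minus strand), H2-D1 (chr17:35262919-35263093, plus strand) and B2m (chr2:122147512-122147686, plus strand), 5′ to 3′. Capitals mark, in order, a κB-type match and an IRF-type match (the reverse order in B2m), then TGACG and ATTGG.
H2-K1: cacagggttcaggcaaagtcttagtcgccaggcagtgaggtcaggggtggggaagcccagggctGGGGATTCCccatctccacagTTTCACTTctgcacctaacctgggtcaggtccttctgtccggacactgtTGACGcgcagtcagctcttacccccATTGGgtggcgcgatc
H2-D1: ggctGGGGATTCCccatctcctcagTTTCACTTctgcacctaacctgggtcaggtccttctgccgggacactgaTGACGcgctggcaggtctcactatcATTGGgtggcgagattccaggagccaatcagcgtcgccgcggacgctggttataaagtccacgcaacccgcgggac
B2m: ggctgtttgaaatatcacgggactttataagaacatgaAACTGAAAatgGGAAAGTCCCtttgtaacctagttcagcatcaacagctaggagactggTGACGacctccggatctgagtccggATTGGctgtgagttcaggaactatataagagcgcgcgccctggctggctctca

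All 3 promoters held TGACG followed by ATTGG after a gap of exactly 20 bases. TGACG is the core of a CREB/ATF site and ATTGG is the reverse complement of the CCAAT box bound by NF-Y, the right-hand elements of the class I promoter module. Among all 32851 promoter windows of the RefSeq table, 31 held this spaced pair on either strand, a share of 0.0944%. This pair and its gap were picked after the 3 promoters had been read. None of the windows of Tap1, Tapbp, Psmb8, Psmb9 and Psmb10 held it.

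The same 3 promoters also held the IRF-type word AANNGAAA, present in 23.9% of all windows on either strand, and a κB-type word, GGGNNTTCC or the same with 1 more T, present in 7% on either strand. In B2m the κB-type word lay between the IRF-type word and TGACG, and in the heavy chains upstream of both. The GAS word TTCNNNGAA, a STAT site, was found in the Psmb8 window, where it reads the same on both strands, and in 8.30% of all windows. These matches are letters in a window and do not show binding.

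The 31 windows belong to 27 genes, of which 24 are no members. Among those, 21 were measured in each culture comparison, and 6 were higher after culture in wild type (8.17% of all genes) and 3 in mutant cells (5.19% of all genes) by the rule defined with the culture folds, with 1 (Ibsp, a bone matrix gene) lower in wild type cells. They include H2-M3, a class I heavy chain that presents formylated peptides, which stood at 1.65 (0.998 to 2.67) in wild type and 1.9 (1.34 to 2.69) in mutant cells and was not called.

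Of the members, 7 lie in the H2 complex on chromosome 17, namely Tapbp, H2-K1, Psmb9, Tap1, Psmb8, Tap2 and H2-D1, from 33915899 to 35267499 on GRCm38. B2m lies on chromosome 2, and Nlrc5 and Psmb10 lie on chromosome 8. RefSeq start sites of Tap1 and Psmb9, which point away from each other, have 225 bases between them.

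The class I family has many similar copies, and reads that align to several places are lost from these tables. Of all 75-base words in the transcripts of H2-K1, 3.10% also occurred in another gene's transcript, and for H2-D1 the share was 5.40%. It was 1.10% for Tapbp and 0% for the other 7 members. The corresponding shares were 17% for H2-Q7, 18.5% for H2-T22 and 17.9% for H2-Q6. H2-Q7 had 1 count and H2-T22 had 2 counts over all 4 libraries, against 158 for H2-Q6, so the first pair was not interpreted.

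Culture of sorted cells asks what state they reach after a week with feeder cells and cytokines. Class I genes were far higher after culture in both genotypes. Summed over the 10 members, the level was 182 CPM in wild type and 168 CPM in mutant cells before culture, and 2638 CPM and 1810 CPM after. The ratio of sums was 14.5 (13.5 to 15.6) in wild type and 10.7 (10.2 to 11.4) in mutant cells.

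A member was called higher or lower when the whole interval of its fold lay beyond 2-fold, with at least 20 counts in 1 of the 2 libraries. In wild type cells, 9 of 9 measured members were called higher, against 8.17% of all 17154 measured genes, with none called lower against 5.77%. The count was 6 with total-count scaling, without Tap2, Psmb10 and Nlrc5, 7 with upper-quartile factors, without Tap2 and Nlrc5, and 8 with background subtracted, without Psmb8. In mutant cells, 7 of 10 were called higher, against 5.19% of 18807 genes, with none called lower against 3.62%. Intervals lay wholly above 1 for 9 of 9 and 10 of 10 measured members, against 33.9% and 32.4% of all genes. The median log2 fold of the measured members was 3.47 in wild type and 2.80 in mutant cells, beside 0.05 and -0.04 over all measured genes.

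**Figure D1:**
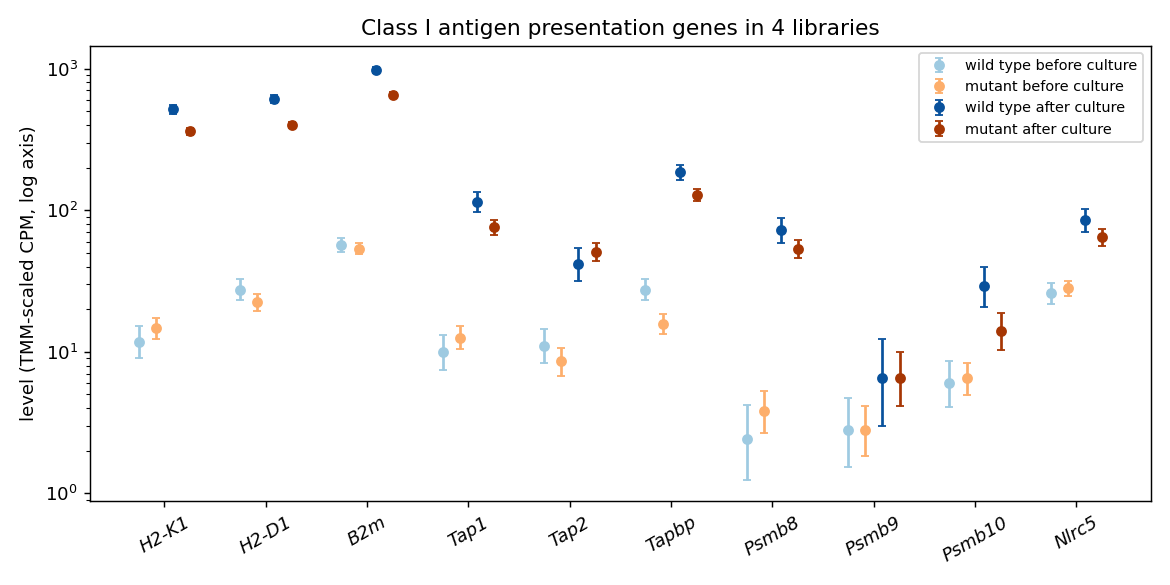
Level of each member in each library, in TMM-scaled CPM on a log axis, with points for the 4 libraries and bars for 95% Poisson intervals. H2-K1, H2-D1 and B2m move from between 11.8 and 56.8 CPM before culture to between 361 and 978 CPM after, while Psmb9 stays below 7 CPM in all 4.

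H2-K1 had the largest fold in both genotypes, though in wild type cells its interval overlaps that of Psmb8, which stood above H2-D1. H2-K1 had 59 counts in wild type and 135 in mutant cells before culture (11.8 and 14.7 CPM), and 706 and 1208 after culture (514 and 361 CPM). Both libraries after culture lay far above both before it, by 43.4-fold (33.2 to 57.6) in wild type and 24.7-fold (20.6 to 29.7) in mutant cells. Per kb of exon, H2-K1 moved from rank 7589 to rank 110 of 22873 genes in wild type cells.

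H2-D1, the other classical heavy chain counted here, stood at 27.5 CPM in wild type and 22.3 CPM in mutant cells before culture, and at 612 CPM and 400 CPM after. Its levels were again separated by culture, with folds of 22.3 (18.6 to 26.9) and 18.0 (15.5 to 20.9). B2m, the light chain that pairs with class I heavy chains, stood at 56.8 and 53.4 CPM before culture and at 978 and 654 CPM after. Its folds were 17.2 (15.1 to 19.7) in wild type and 12.3 (11.1 to 13.5) in mutant cells, and its level per kb was 10th highest of all genes in wild type and 17th in mutant cells after culture.

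The ratio of counts per kb of 2 genes in 1 library does not depend on how libraries are scaled. H2-K1 relative to B2m was 0.108 (0.0804 to 0.144) in wild type and 0.143 (0.117 to 0.173) in mutant cells before culture, and 0.273 (0.249 to 0.299) and 0.287 (0.267 to 0.308) after. Both ratios after culture were above both before it, so H2-K1 and B2m did not change by the same factor. H2-D1 relative to B2m was 0.198 (0.160 to 0.244) in wild type and 0.170 (0.144 to 0.201) in mutant cells before culture. It was 0.256 (0.234 to 0.279) and 0.250 (0.234 to 0.268) after, and the wild type intervals overlapped. H2-K1 was below H2-D1 per kb in wild type cells before culture, at a ratio of 0.547 (0.396 to 0.747), and near it after culture, at 1.07 (0.963 to 1.18). In mutant cells the ratio was 0.836 (0.668 to 1.04) before culture, an interval that held 1, and 1.15 (1.06 to 1.24) after.

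Among transporter and loading genes, Tap1, which encodes a TAP subunit, stood at 10.0 CPM in wild type and 12.6 CPM in mutant cells before culture and at 114 CPM and 76.0 CPM after. Its folds were 11.4 (8.23 to 16) and 6.03 (4.82 to 7.58). Tap2, which encodes the other TAP subunit, stood at 11 and 8.57 CPM before culture and at 41.5 and 50.8 CPM after, with folds of 3.76 (2.55 to 5.54) and 5.93 (4.51 to 7.84). Background alone could give 41.5% of the Tap2 counts and 39.1% of the Tap1 counts in wild type cells before culture, 36.3% and 21.2% in mutant cells, and at most 3.26% after culture. Tap1 relative to Tap2, per kb, was 1.06 (0.708 to 1.58) before and 3.21 (2.36 to 4.43) after culture in wild type cells, but 1.71 (1.27 to 2.31) and 1.74 (1.43 to 2.13) in mutant cells.

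Tapbp, the tapasin gene, stood at 27.5 CPM in wild type and 15.7 CPM in mutant cells before culture and at 186 CPM and 129 CPM after. Its folds of 6.75 (5.46 to 8.37) and 8.21 (6.79 to 9.98) were smaller than those of the chains it serves. Tapbp relative to B2m was 0.144 and 0.0875 per kb before culture and 0.0563 and 0.0586 after. GENCODE has Zbtb22 overlapping Tapbp on the same strand, so reads of that pair cannot be fully told apart. Patl2 overlaps B2m on the opposite strand, and whether their reads were told apart depends on the strand setting of the counting, which is not given.

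The immunoproteasome genes encode catalytic subunits that replace Psmb5 (by Psmb8), Psmb6 (by Psmb9) and Psmb7 (by Psmb10) and alter which peptides are cut. They differed among themselves. Psmb8 had 12 counts in wild type and 35 in mutant cells before culture (2.41 and 3.80 CPM), and 99 and 178 after (72.0 and 53.2 CPM). Its folds were 29.9 (16.4 to 59.8) and 14 (9.71 to 20.8). Background could give 89.9% of its counts in wild type cells before culture, and with background subtracted that fold could not be bounded (0.810 to 60448), whereas the fold in mutant cells became 19.8 (11.3 to 34.6).

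Psmb10 stood at 6.02 CPM in wild type and 6.51 CPM in mutant cells before culture and at 29.1 and 14.1 CPM after. It was called in wild type cells at 4.83 (2.94 to 8.04) but not in mutant cells, where its fold was 2.16 (1.44 to 3.21). With total-count scaling it was not called in wild type cells either, at 3.14 (1.91 to 5.22). Psmb9 was low throughout, with 14 and 26 counts before culture and 9 and 22 after, or 2.81, 2.82, 6.55 and 6.58 CPM. Its fold of 2.33 (0.890 to 5.78) in wild type cells rested on too few counts to be measured, and that in mutant cells, 2.33 (1.26 to 4.28), was not called. Background could give 64% and 43.3% of the Psmb9 counts before culture. With background subtracted, its folds were 4.48 (0.888 to 22.6) in wild type and 3.25 (1.43 to 7.39) in mutant cells.

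Constitutive proteasome genes gave no call in either genotype. Psmb6, with the most counts of the 3, stood at 63.8 CPM in wild type and 69.6 CPM in mutant cells before culture and at 92.4 and 80.7 CPM after. Folds of Psmb6 were 1.45 (1.17 to 1.78) and 1.16 (1 to 1.34), and folds of Psmb7 were 1.25 (0.903 to 1.72) and 1.61. Folds of Psmb5, which had the fewest counts, were 1.81 (0.758 to 4.06) and 2.04 (1.3 to 3.18), near those of Psmb9 and Psmb10 in mutant cells. Psmb8 relative to its counterpart Psmb5 was 0.331 (0.148 to 0.712) in wild type and 0.387 (0.244 to 0.607) in mutant cells before culture, and 5.47 (2.85 to 11.8) and 2.66 (1.86 to 3.90) after, per kb.

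The exchange of subunits at the level of RNA was thus uneven. Psmb10 relative to Psmb7 moved from 0.170 (0.111 to 0.253) to 0.655 (0.424 to 1) in wild type cells, and from 0.190 (0.141 to 0.252) to 0.255 (0.180 to 0.355), with overlapping intervals, in mutant cells. Psmb9 relative to Psmb6 moved from 0.026 (0.014 to 0.0442) to 0.0418 (0.0187 to 0.0819) in wild type cells. In mutant cells it moved from 0.0239 (0.0155 to 0.0354) to 0.0481 (0.0296 to 0.0743). The intervals before and after culture overlapped in both genotypes. Psmb9 relative to Tap1, its divergent neighbour, was 0.612 (0.312 to 1.12) and 0.490 (0.307 to 0.754) per kb before culture. After culture it was 0.125 (0.0562 to 0.244) and 0.189 (0.116 to 0.293), lower in both genotypes. These ratios are not corrected for background, which before culture could give 64% and 43.3% of the Psmb9 counts but 39.1% and 21.2% of the Tap1 counts. The size of the drop is thus uncertain. Psmb9 and Tap1 also overlap in GENCODE on opposite strands, and the strand setting of the counting is not given in the sources used here.

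**Figure D2:**
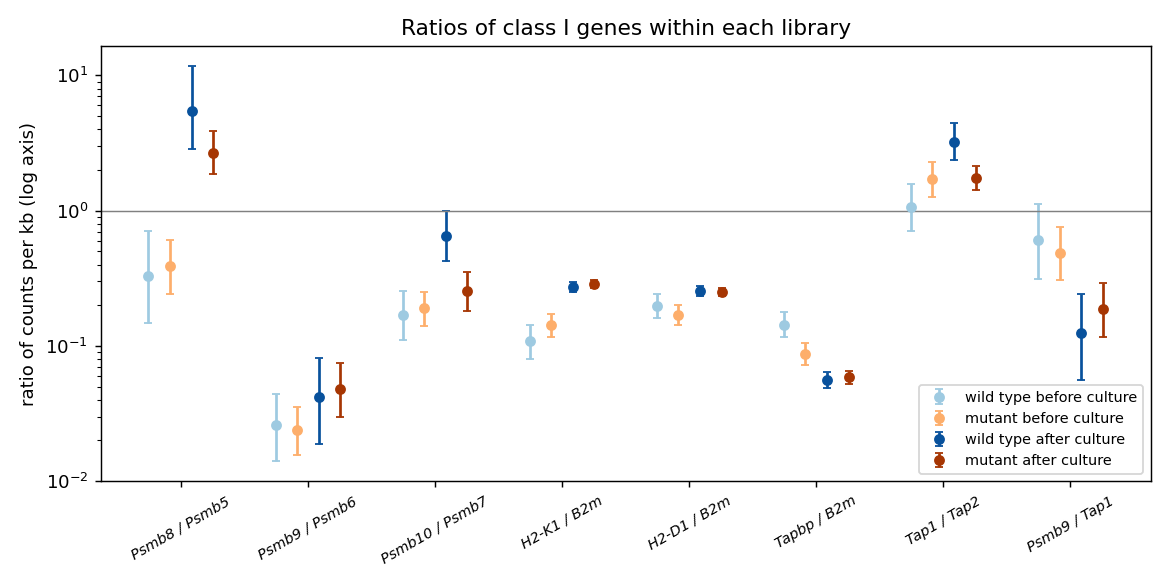
Ratio of counts per kb of 2 genes within each library, on a log axis, with 95% Clopper-Pearson intervals and a line at 1. Psmb8 passes from below Psmb5 to above it after culture, while Psmb9 stays at or below 0.0481 of Psmb6.

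Nlrc5, the class I transactivator, stood at 25.9 CPM in wild type and 28.1 CPM in mutant cells before culture and at 85.1 and 64.6 CPM after. Both cultured libraries were higher, by 3.29-fold (2.54 to 4.26) in wild type and 2.30-fold (1.91 to 2.76) in mutant cells, where the interval reached just below 2. Ciita, the related transactivator of class II genes, had 68 and 101 counts before culture and 7 and 45 after, and background could give 23.9% to 65.2% of these. Scaled, its folds were 0.373 (0.145 to 0.811) in wild type and 1.23 (0.844 to 1.76) in mutant cells, and neither was called.

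**Figure D3:**
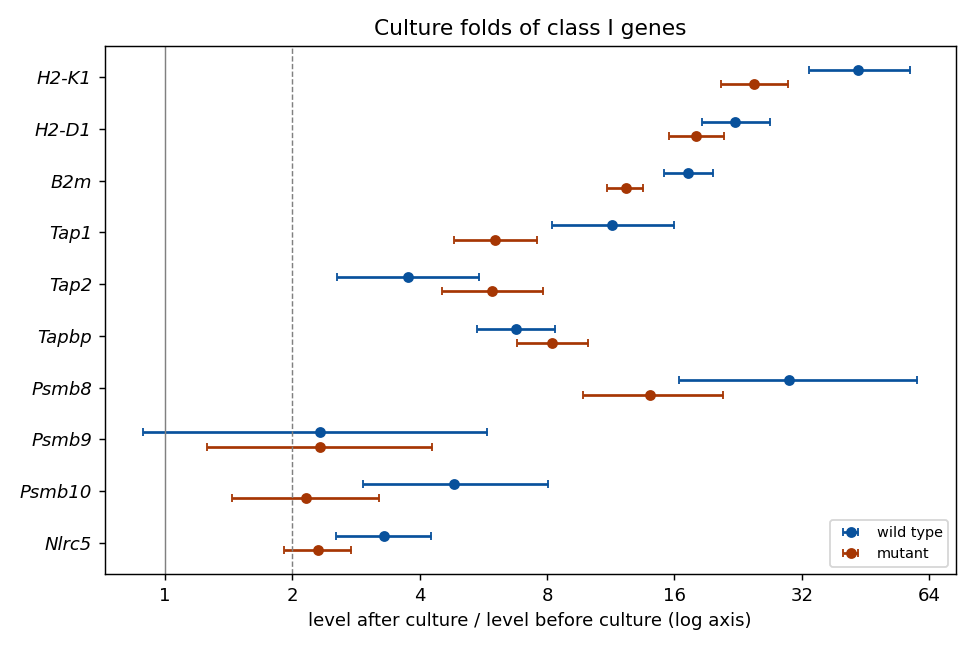
Fold of each member after over before culture, on a log axis, for wild type and mutant cells, with 95% Clopper-Pearson intervals and lines at 1 and 2. H2-K1 reaches 43.4 in wild type and 24.7 in mutant cells, while Psmb9, Psmb10 and Nlrc5 lie nearest to 2 in mutant cells.

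A fit of genotype and culture together over the 4 libraries uses the disagreement between genotypes as its estimate of spread. In edgeR's quasi-likelihood test with Benjamini-Hochberg adjustment over 18531 genes, 9 of 10 members rose with culture, against 23.5% of all genes that rose and 18.6% that fell. With upper-quartile factors the split over all genes was 2164 higher and 6062 lower, with DESeq2 it was 3196 and 832, and 9 members rose under both, against 4361 and 3440 in the edgeR fit. The largest adjusted p among those 9 was 0.000381, for Psmb10, with a fitted log2 fold of 1.59. Psmb9, with a fitted log2 fold of 1.16 and an adjusted p of 0.151 (0.0532 to 0.399 over the alternatives, with none given by DESeq2), did not pass in the edgeR test. This fit has 1 residual degree of freedom and takes the spread of each gene from the trend over all genes, so its p-values are only as good as that trend.

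Other class I genes, from a list of 18, moved less as a group. Of 14 measured in wild type cells 5 were called higher, and of 16 in mutant cells 4 were, with none lower in either, beside 8.17% and 5.19% of all genes called higher. The medians were 0.87 and 0.96 on the log2 scale. H2-Q4, a class I heavy chain of the Q region, had folds of 13.2 (10.1 to 17.5) and 9.04 (7.51 to 10.9), and H2-T23, which encodes the nonclassical molecule Qa-1, had folds of 7.85 (5.02 to 12.5) and 7.67 (5.53 to 10.8). Erap1, which trims peptides in the endoplasmic reticulum, had folds of 2.64 (2.08 to 3.34) and 3.63 (3.05 to 4.33). Psme1, a subunit of the proteasome activator PA28, was called in wild type cells at 3.53 (3.01 to 4.14) and not in mutant cells, at 1.98 (1.78 to 2.19). H2-Q6, whose reads are partly lost to copies, had folds of 21.3 (9.97 to 52.2) and 6.4 (4.15 to 10.1).

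General chaperones of the same loading complex were among those not called. Calr stood at 1.72 (1.62 to 1.82) in wild type and 1.48 (1.43 to 1.54) in mutant cells, and Pdia3 at 1.38 (1.29 to 1.47) and 1.38 (1.32 to 1.45). In the edgeR fit, 10 of 15 tested genes of the list rose and 1 fell, beside 23.5% and 18.6% of all genes.

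Interferon signalling genes, from a list of 18, included 6 called higher in each genotype, of 17 measured in wild type and 18 in mutant cells, beside 8.17% and 5.19% of all genes. Ifngr2, Jak1, Stat2, Irf9 and Irf7 were among those called in both. Jak1, a kinase of interferon receptors, had folds of 8.63 (8.11 to 9.18) and 7.10 (6.80 to 7.42), and Irf7, itself induced by type I interferon, 39.9 (26.7 to 62.1) and 23.9 (17.1 to 34.2). Stat2 had folds of 9.68 (7.92 to 11.9) and 5.73 (4.94 to 6.65), and Ifngr2, a chain of the interferon gamma receptor, 6.42 (5.18 to 7.99) and 3.52 (3.07 to 4.04). In the edgeR fit, 13 of 17 tested genes of the list rose and 2 fell, beside the same 23.5% and 18.6%. Irf1, an activator of class I promoters, was not called, at 0.807 (0.598 to 1.07) and 0.543 (0.440 to 0.664).

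The RFX genes Rfx5, Rfxap and Rfxank, whose products bind the class I and class II promoter module, were not called, with folds of 1.07 to 2.03. The 2 interferon genes of the list had few counts after culture. Ifnb1 had 0 counts in wild type and 5 in mutant cells, and Ifng had 0 and 8. Before culture Ifnb1 had only 7 and 22 counts, of which background could give 71% and 28.4%, and its wild type fold was not measured. In mutant cells neither gene was called, at 0.626 (0.185 to 1.69) for Ifnb1 and 0.339 (0.140 to 0.709) for Ifng. A count of 0 allows up to 3 counts. With 3 counts in place of its 0, Ifng, with 38 counts before culture in wild type cells, was 3.49-fold lower (the interval begins at 1.11). Background could give 21.1% of those 38 counts.

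By the distance between log2 profiles over the 4 libraries, the 5 genes nearest to the median profile of the members, of 16549 compared, were Xaf1, Ifi35, Ifit2, Gbp7 and Irgm2. All 5 are known as interferon-induced genes. Their distances were 0.05 to 0.10, and their levels relative to their own means lay between 1.68 and 1.76 in wild type and between 1.16 and 1.22 in mutant cells after culture. These profiles rest on 4 points and share the libraries and their scaling with the members.

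**Figure D4:**
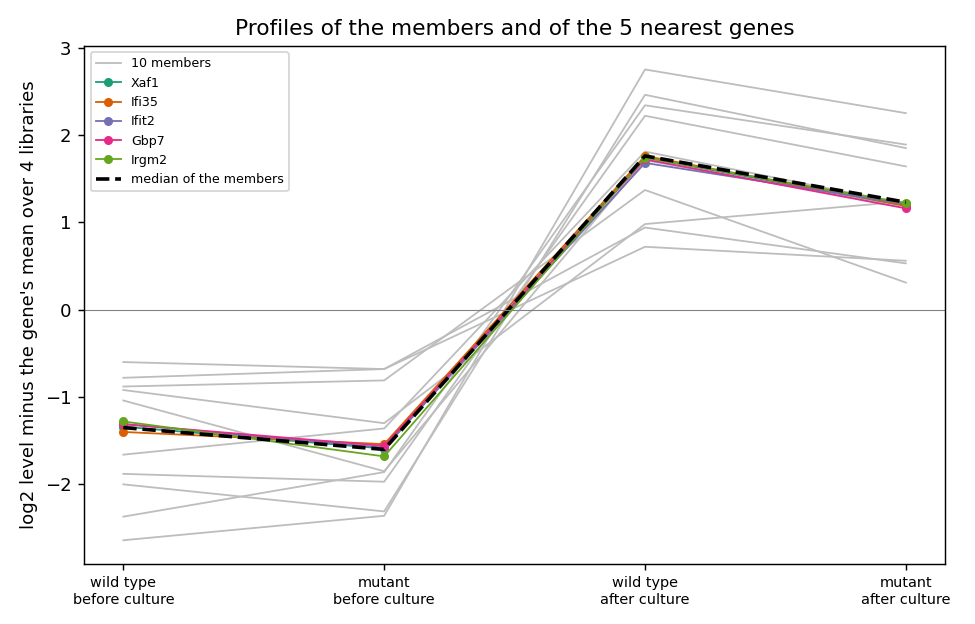
Log2 level of each gene minus its mean over the 4 libraries, for the 10 members (grey), their median (dashed) and the 5 nearest other genes. The 5 genes follow the median, at -1.35 and -1.60 before culture and 1.76 and 1.23 after, for wild type and mutant.

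Genes between H2-K1 and H2-D1 on chromosome 17 give the pattern of the surrounding region. Of 76 such genes that are no members, 59 were measured in wild type cells, with 9 called higher and 3 lower (8.17% and 5.77% of all genes), and 70 in mutant cells, with 5 higher and 1 lower (5.19% and 3.62% of all genes). Their medians were 0.40 and -0.12 on the log2 scale. The largest called differences in wild type cells were those of Btnl6, with 47 counts before and 1 after culture, H2-Ab1, with 30 and 0, and Gpsm3, at 7.08 (4.09 to 12.6). H2-Ab1, a class II chain gene, was 2.76-fold lower when 3 counts replaced its 0, with an interval that then held 1 (0.858 at its lower end). The shift of the class I members was thus larger than the median of the genes lying among them.

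Markers of cell types that carry much class I or class II were summed in each library. The 8 leukocyte genes summed to 61.6 CPM in wild type and 68.7 CPM in mutant cells before culture and to 37.8 and 39.2 CPM after, with Cd52 and Coro1a at 0 in wild type cells after culture. The 7 class II genes summed to 40.9, 40.1, 12.4 and 27.5 CPM in the same order, with H2-Aa, H2-Ab1 and H2-DMb1 at 0 in wild type cells after culture. The 6 lymphocyte genes summed to 40.1, 34.0, 12.4 and 22.1 CPM, with Nkg7 at 0 in the same library. Background could give 34.7% and 21.2% of the leukocyte counts before culture and 16.6% and 19.8% after, and 49.3%, 34.3%, 47.9% and 26.6% of the class II counts. Itgb2, a leukocyte integrin, held 34 of the 52 leukocyte counts in wild type cells after culture, with folds of 1.62 (1.05 to 2.46) and 0.775 (0.562 to 1.05), and Fcer1g stood at 1 and 1.19 CPM before culture and 2.91 and 2.99 CPM after.

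The 8 stromal genes summed to 3280 CPM in wild type and 5236 CPM in mutant cells before culture and to 1173 and 980 CPM after, with Lum at 0 in wild type cells after culture. The 8 pan-endothelial genes, none of them at 0, summed to 3753 and 4002 CPM before and to 9359 and 8767 CPM after, folds of 2.49 (2.44 to 2.55) and 2.19 (2.16 to 2.22), against 14.5 and 10.7 for the class I sum. In these bulk libraries a change in the share of a cell type and a change of RNA per cell cannot be told apart, and the part of cell makeup in the class I result was not tested.

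The genotype comparison asks whether class I levels differ between mutant and wild type cells. Before culture, none of the 10 members was called in either direction, against 0.0158% of 18934 genes called higher and 0.0475% called lower in mutant cells. Folds of mutant over wild type ran from 0.572 to 1.58, with 6 above 1 and 4 below. Tapbp stood lowest at 0.572 (0.450 to 0.728), the one interval that did not hold 1, though with background subtracted those of H2-D1, at 0.736 (0.58 to 0.935), and B2m, at 0.845 (0.728 to 0.981), did not hold it either. Intervals wholly below 1 were found for 8.54% of all genes measured.

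After culture, 8 of the 10 members were lower in mutant than in wild type cells beyond counting error, although no member was called. B2m had a fold of 0.669 (0.624 to 0.716), H2-D1 0.654 (0.600 to 0.714) and H2-K1 0.703 (0.640 to 0.773). Psmb10, at 0.483 (0.310 to 0.756), was lowest, and Tap2, at 1.23 (0.903 to 1.69), highest. The call rule marked 0.244% of 12309 genes as higher and 0.0731% as lower.

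Intervals lay wholly below 1 for 8 of the 10 members, against 12.3% of all genes, and wholly above 1 for none, against 9.48%. The median log2 fold of the members was -0.52, beside -0.03 over all genes, and the summed level was 0.686 (0.659 to 0.715) of wild type. Of 16 measured interferon signalling genes, 14 stood below 1 and 2 above, with a median log2 fold of -0.19. Irf7 and Stat2 were the lowest of these, at 0.486 (0.414 to 0.571) and 0.635 (0.555 to 0.727). Each cultured group is a single culture, so this difference is between 2 libraries and cannot be told apart from a difference between cultures.

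**Figure D5:**
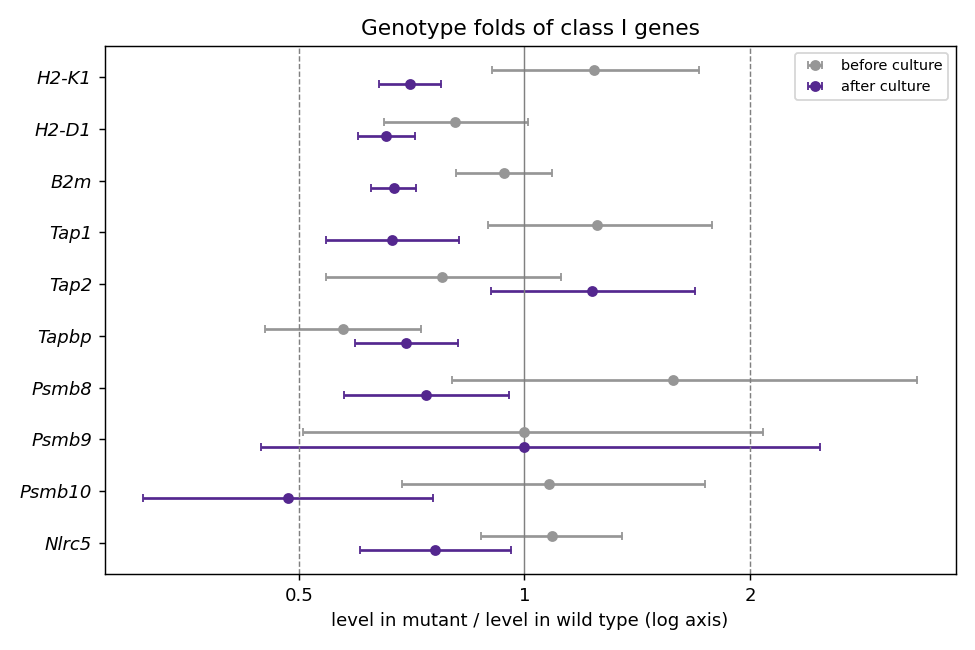
Fold of each member in mutant over wild type cells before and after culture, on a log axis, with 95% Clopper-Pearson intervals and lines at 0.5, 1 and 2. After culture 8 of 10 intervals lie wholly below 1, and no interval lies wholly beyond 2-fold in either comparison.

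In the edgeR fit over both culture states, no member differed by genotype at an adjusted p under 0.05, and 3 had an unadjusted p under 0.05. DESeq2 also gave none, with 2 at an unadjusted p under 0.05. Genes that passed in edgeR made up 0.0108% (higher) and 0.0216% (lower) of all tested. Tapbp came nearest, with a fitted log2 fold of -0.68 and an adjusted p of 0.382.

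The genotype fold after culture divided by that before gives the change in the genotype difference. It was 0.568 (0.413 to 0.782) for H2-K1, 0.711 (0.605 to 0.836) for B2m and 0.530 (0.360 to 0.780) for Tap1. The intervals of 6 members, also including Psmb8, Psmb10 and Nlrc5, lay below 1. Those of Psmb8 and Nlrc5 ended at 0.944 and 0.951 and held 1 with total-count and upper-quartile scaling. For H2-D1 it was 0.809 (0.641 to 1.02), for Tapbp 1.22 (0.919 to 1.61) and for Tap2 1.58 (1 to 2.49), the last opposite in direction to its partner Tap1. These intervals again hold counting error alone.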

How the data were processed

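Stranded paired-end libraries of total RNA with reads of 75 nt were made with a Takara Smart-Seq kit, per the protocols in the labels. The authors deposited raw counts of read pairs for each gene. The submitters' processing notes name bcl2fastq, STAR, HTSeq 0.11.2 and mm10, and the deposited names state removal of duplicates with sambamba. Neither annotation nor strand setting is named in the sources used here. Pairs in no annotated gene and the other HTSeq classes were left out. The former made up 66.5% (wild type) and 53.6% (mutant) of all pairs before culture, against 20.0% and 30.3% after.

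From the counts, TMM factors (edgeR 4.0.16, R 4.3.3) gave CPM with exact Poisson intervals and folds with Clopper-Pearson intervals. Since amplified pairs lack molecular identifiers and may repeat a molecule, intervals cover counting error only. Exon lengths and positions came from GENCODE vM21 on GRCm38, the same assembly as mm10, for 98.0% of symbols. The additive edgeR quasi-likelihood fit of genotype and culture and the fold calls were tested on simulated counts. The DESeq2 1.42.0 alternative was not. Background-subtracted folds have approximate intervals.

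Members and lists were chosen with earlier results of these data known. The text names all members, up to 4 called genes with the most counts per pathway list (2 where none was called), the 5 nearest profiles (prior count 2) and the 3 interval genes with the largest absolute log2 fold. Irf1, Irf7, Irf9, Ciita, Ibsp, Cdh5, Lyve1, Flt4, Prox1, H2-M3, Calr, Pdia3, the RFX and interferon genes were added after their values were seen. One gene that this rule names is not reported here.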

Additional observations from a re-analysis of the deposited data

How the results depend on the processing

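The counts of members called in the comparisons of 2 libraries, and of members passing the additive test, stayed within 1.5 times their reported values under every alternative run: total-count, upper-quartile and DESeq2 scaling, background subtraction, no minimum count, 3 counts in place of 0, a 1.5-fold call, DESeq2's test, and no low-count filter. Without genotype as a term, that is with no replicate block pairing the libraries of an embryo pool, 9 members passed, as with it, and 4753 genes were higher and 4614 lower. Over all genes the culture counts were 4361 higher and 3440 lower in edgeR, 3082 and 2435 with background subtracted, and 4430 and 2938 without the filter on low counts. By genotype, 2 genes were higher and 4 lower, against 7 and 6 with upper-quartile factors, 1 and 1 with background subtracted, and 1 and 0 with DESeq2. Total-count scaling moved all log2 culture folds by -0.62 in wild type and -0.45 in mutant cells. Under it the wild type folds of Tap2, Psmb10 and Nlrc5 were 2.44, 3.14 and 2.13 and no longer called, as were Tap2 (2.76) and Nlrc5 (2.41) with upper-quartile factors. Scaling alternatives for the ratio of genotype folds, chosen after seeing the data, gave 5 (upper-quartile), 6 (total counts) and 7 (DESeq2) members with an interval without 1. These counts join intervals below and above 1. Total-count scaling moved all log2 genotype folds by -0.11 before and 0.07 after culture, and upper-quartile factors by -0.10 and 0.02, so both raised every ratio. Under both, the intervals of Psmb8 and Nlrc5 held 1 and that of Tap2 lay above 1. No fold of a called member reversed. Leaving out a replicate was not possible with 1 library per group. With 12 counts for Psmb8 and 14 for Psmb9 in wild type cells before culture, depth limits both folds.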
